A study of Mus musculus with 4 samples.

Results

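The *Zic* genes encode transcription factors that bind DNA through C2H2 zinc fingers and are named after zinc finger proteins of the cerebellum. The genes followed here are *Zic1*, *Zic2*, *Zic4* and *Zic5*, taken by name: every spot other than a control whose gene name in the scanner output was 1 of these 4 symbols. They are 4 of the 24729 genes named on the arrays and have 11 of the 56604 probes.

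RNA of whole mouse embryos of the C57BL/6 strain was hybridized to one-colour Agilent arrays, on which the brightness of a spot after Cy3 labelling measures 1 transcript. Wild type (WT) and *Dyrk2* knockout (*Dyrk2*-/-) embryos were taken at embryonic day 8.5 (E8.5) and at E10.5, to ask how gene expression differs between the genotypes while organs begin to form. Each of the 4 combinations has 1 array, so no difference has a replicate check, and precision is limited by the number of arrays. *Dyrk2* encodes a protein kinase, and the knockout mice descend from C57BL/6J eggs injected with a CRISPR/Cas9 nickase, which left small deletions in the gene. Several deletion alleles were made, and neither the labels nor the methods say which allele, or how many embryos, stand behind an array.

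ZIC proteins share their type of zinc finger with the GLI factors, which carry out the hedgehog response, and with the GLIS factors. In the mouse embryo *Zic* genes are transcribed in the dorsal neural tube, in neural crest and in somites. The family is known for roles in the closure of the neural tube, the division of the forebrain, the left-right axis and the growth of the cerebellum. In the genome the 4 genes form pairs of neighbours read in opposite directions, *Zic1* beside *Zic4* on chromosome 9 and *Zic2* beside *Zic5* on chromosome 14.

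Values are log2 of the processed intensity minus the 75th percentile of the same array, so that 0 is that percentile. A pair of arrays was compared at a probe if the scanner software marked it well above background on either of them, and a gene, represented by its brightest probe, was called at a 1.5-fold difference. Probes printed at several spots had a median SD between spots of 0.09 (WT) and 0.12 (knockout) in the E8.5 pair and 0.07 and 0.08 in the E10.5 pair, a spread within arrays that says nothing of embryos. Each *Zic* probe has a single spot, and the files give its position but not the exon or UTR it lies in. Of the 11 *Zic* probes, 6 were well above background on all 4 arrays, and these are the probes of *Zic1*, *Zic2* and *Zic5*.

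Some features of the arrays bear on every comparison between genotypes. The log2 value of the brightest *Dyrk2* probe was 0.06 (WT) and 0.76 (knockout) in the E8.5 pair and −0.31 and 0.34 in the E10.5 pair. The other probe had ratios of 0.03 and 0.28, and −0.52 at E8.5 with scaling by spike-in controls. At its brightest probe the transcript was thus not lower on the arrays labelled knockout. It does not check the labels, and each direction below rests on those labels. The authors report loss of the Dyrk2 protein in tissues of knockout embryos at a later stage, and the arrays measure no protein. The E10.5 knockout array was the 1 array with *Xist*, the RNA of the inactive X chromosome, well above background, and the 1 array without the Y-linked *Ddx3y*, *Eif2s3y*, *Kdm5d* and *Uty*. The *Zic* genes compared here are autosomal. All 8 erythrocyte genes were higher on the knockout than on the WT array at E8.5, and the sum of their scaled signals was 15.0 on the WT and 324 on the knockout array, with *Hbb-bh1* the brightest on both (10.3 and 142). At E10.5 the sums were 1098 and 1293, with *Hbb-y* the brightest (348 and 355). *Klf1* was not above background on the WT array at E8.5. The part of these features in the *Zic* values was not tested.

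*Zic1* is a gene of the dorsal neural tube and somites whose loss impairs the cerebellum. Its only probe (A_51_P194230, mm9 chr9:91255425-91255484, minus strand) had E8.5 log2 values of 1.18 (WT) and 1.64 (knockout) and E10.5 values of 4.99 and 4.84. Both E10.5 arrays lay far above both E8.5 arrays. Before scaling, its intensity was 883 and 1018 in the E8.5 pair and 14090 and 11589 in the E10.5 pair. Relative to the 75th percentile, *Zic1* was 14.1-fold higher at E10.5 than at E8.5 on the WT arrays (log2 ratio 3.81) and 9.21-fold higher on the knockout arrays (3.20). In whole embryos, fewer cells that express a gene and less RNA per cell cannot be told apart.

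*Zic4*, the neighbour of *Zic1*, is expressed with it in the dorsal neural tube, and deletions of the pair are linked to Dandy-Walker malformation of the cerebellum. Its brightest probe (A_55_P2152637, chr9:91282924-91282983, plus strand) was not above background at E8.5, where the log2 values were −5.30 on the WT and −5.61 on the knockout array, and reached 0.16 and −0.15 at E10.5. Before scaling, the E8.5 intensities were 9.92 and 6.70 and the E10.5 intensities 494 and 365. The floor of an array is the lowest value among its probes well above background, −4.82 (WT) and −4.53 (knockout) for E8.5. Against these floors *Zic4* was at least 31.5-fold higher on the E10.5 WT array and at least 20.8-fold higher on the E10.5 knockout array. With normexp background correction and an offset of 50 the log2 ratios were lower, 2.85 and 2.37. No genotype ratio is given for *Zic4* at E8.5, since neither array was above background.

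The other 4 *Zic4* probes did not all follow the brightest. The second probe by signal (chr9:91279481-91279540) was below background on the E8.5 arrays (log2 values −5.67 for WT and −5.61 for knockout) and had E10.5 values of −0.67 and −1.53. So was the third (chr9:91268702-91268761), with E8.5 values of −6.27 and −5.47 and E10.5 values of −2.50 and −2.19. Both were thus detected at E10.5 and not at E8.5, with rises of at least 17.7-fold and 4.98-fold on the WT arrays and at least 7.99-fold and 5.05-fold on the knockout arrays. The fourth (chr9:91273565-91273624) showed no such pattern: it was above background on both WT arrays, at −4.16 and −4.19, and on neither knockout array. The last (chr9:91263852-91263911) was above background on the E10.5 knockout array only, at −4.14. The files give the last the same accession as the brightest and the others different ones, and the fourth and the last lay close to the floor on each array where they were detected.

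*Zic2*, whose loss causes holoprosencephaly and open neural tubes, has 2 probes, both above background on each array. The brighter (A_55_P1962523, chr14:122879296-122879355, plus strand) had E8.5 log2 values of 0.24 (WT) and 0.83 (knockout) and E10.5 values of 0.52 and 0.37. The E8.5 knockout array was the highest of the 4 and the E8.5 WT array the lowest. The other probe (A_51_P364592, chr14:122878810-122878869) had E8.5 values of −0.92 and −0.68 and E10.5 values of −0.82 and −1.08. It also had its highest value on the E8.5 knockout array, and its lowest on the E10.5 knockout array. Between stages the brighter probe differed by a log2 ratio of 0.28 on the WT and −0.45 on the knockout arrays, both short of 1.5-fold, and the second ratio was 0.19 with spike-in scaling.

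*Zic5*, which lies beside *Zic2* and acts in neural tube closure and neural crest, varied little between the arrays with 75th percentile scaling. Its brightest probe (A_55_P2123123, chr14:122856019-122856078, minus strand) had E8.5 log2 values of 1.07 (WT) and 0.93 (knockout) and E10.5 values of 1.06 and 1.01. The second probe (chr14:122858394-122858453) had E8.5 values of −2.91 and −3.00 and E10.5 values of −2.92 and −2.95. The third (chr14:122858928-122858987) had E8.5 values of −3.72 and −4.38 and E10.5 values of −3.91 and −3.82, so that its E8.5 knockout value stood apart, just above the floor of −4.53. Between stages the brightest probe gave log2 ratios of −0.01 on the WT and 0.08 on the knockout arrays. The first of these is positive after quantile normalization (0.06) and without scaling (0.17), and the second rises to 0.72 with spike-in scaling, past 1.5-fold.

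**Figure D1:**
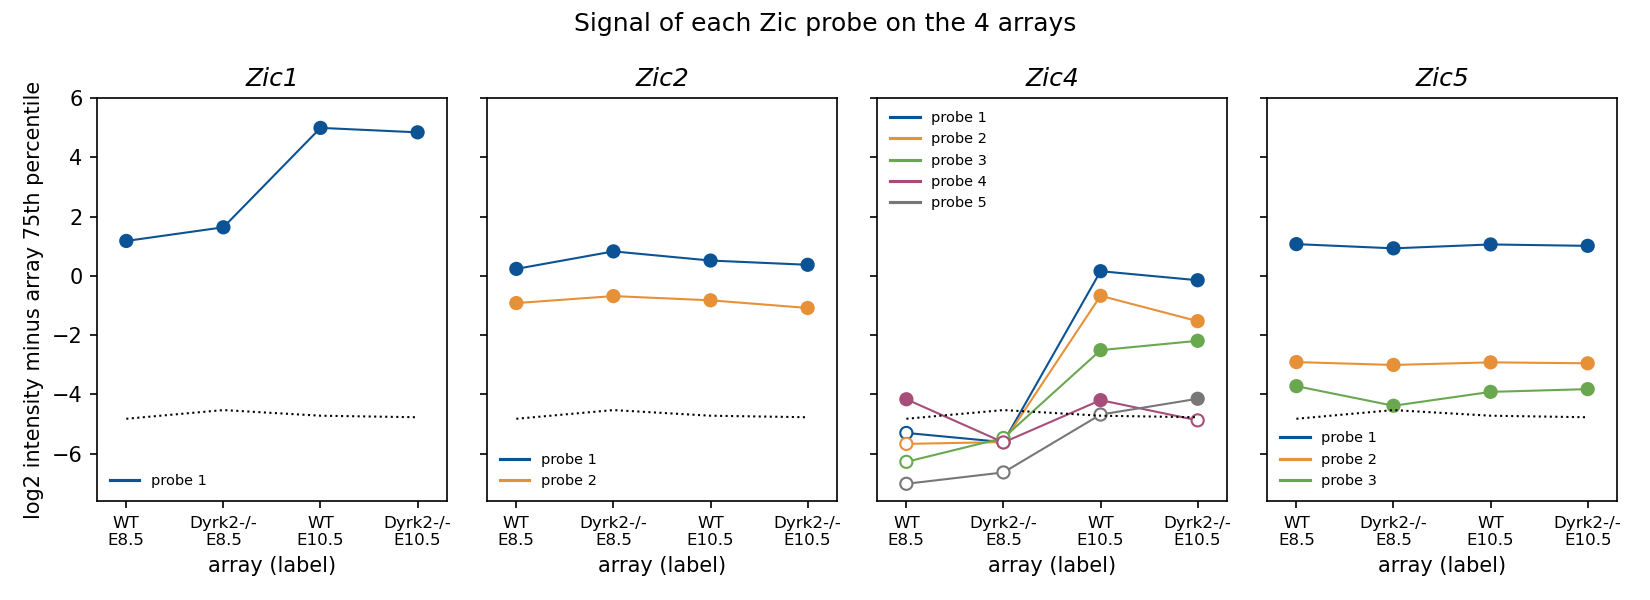
Signal of the 11 *Zic* probes, 1 panel a gene, on the 4 arrays (horizontal axis, labelled by genotype and stage); the vertical axis is log2 intensity minus the 75th percentile of the array, filled points are well above background, open points are not, lines join the points of a probe, and the dotted line is the floor of the arrays. *Zic1* goes from 1.18 and 1.64 (E8.5) to 4.99 and 4.84 (E10.5) and the first 3 *Zic4* probes go from below background to detection, while *Zic2* and *Zic5* show no such rise.

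On the WT arrays 1 of the 3 *Zic* genes above background on all 4 arrays, *Zic1*, was called higher at E10.5 than at E8.5 and 0 lower, where 18.2% of all 16443 genes compared were called higher and 17.1% lower. *Zic1* was also called higher on the knockout arrays and 0 of the 3 lower, where 15.2% of 16073 genes were higher and 13.9% lower. *Zic4* entered both comparisons only through its E10.5 array, so it could be called only as higher, and it is not counted here. On the WT arrays 130 genes, *Zic1* included, were higher by as much as *Zic1* or more, which is 0.791% of those compared, and on the knockout arrays 135 genes were.

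The stage was also tested over all 4 arrays with limma, blocked on genotype, a fit that leaves 1 residual degree of freedom. *Zic1* was higher at E10.5 by 3.51 on the log2 scale (SE 0.16, limma, Benjamini-Hochberg adjusted p = 1.02e-06), with the rise on both pairs of arrays. With 1 residual degree of freedom this p rests on variances shared between probes, and eBayes without the trend gave a limma adjusted p of 0.0048. The 3 brightest probes of *Zic4* entered the fit only through the E10.5 arrays and so could enter only with a difference, and they are not counted as passing. In limma the stage difference of *Zic2* was −0.09 (SE 0.18, adjusted p = 0.745) and that of *Zic5* 0.04 (SE 0.13, adjusted p = 0.852). Of the 6 *Zic* probes well above background on all 4 arrays 1 passed, that of *Zic1*. Among the 32289 probes tested 15.7% passed as higher at E10.5 and 19.6% as lower. In either direction 11397 probes passed, against 2633 with spike-in scaling and 6437 without the trend.

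The genotypes were then compared at each stage. At E8.5, 3 *Zic* genes could be compared and 1 was called, *Zic2*, with a log2 ratio of 0.59 of the knockout over the WT array, 1.51-fold. Over all 15658 genes compared, 3.95% were called higher and 4.11% lower at this stage. The value of *Zic2* lies at the threshold: it was 0.56 after quantile normalization, 0.33 without scaling and 0.04 with spike-in scaling, and 0.24 at the other *Zic2* probe, none of them past 1.5-fold. *Zic1* was 1.38-fold higher on the E8.5 knockout array (log2 ratio 0.46), and its ratio was −0.09 with spike-in scaling. *Zic5* had a log2 ratio of −0.14, and spike-in scaling took it to −0.69, past 1.5-fold. The third *Zic5* probe was 1.58-fold lower at E8.5, and the second 1.07-fold lower.

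These values are relative to the other genes of an array. Scaling by the spike-in controls instead of the 75th percentile moved every E8.5 genotype ratio by −0.55 on the log2 scale and the median of all genes to −0.57. The E10.5 ratios moved by 0.16 and their median to 0.15. Without scaling the medians were −0.28 and −0.15. With spike-in scaling 0.744% of all genes were called higher and 48.2% lower at E8.5. Calls below are those with the 75th percentile unless spike-in scaling is named. Both changes shift every ratio of a pair and its median by the same constant, so they leave the place of a gene beside the median as it was: within the E8.5 pair *Zic1* and *Zic2* above it and *Zic5* below.

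At E10.5 all 4 genes could be compared and 0 were called in either direction, where 1.99% of 16113 genes were called higher and 3.2% lower. The log2 ratios were −0.15 for *Zic1*, −0.14 for *Zic2*, −0.30 for *Zic4* and −0.05 for *Zic5*. Of these, the ratio of *Zic4* was negative under each scaling, from −0.44 to −0.14 over the 7 ways of making the values, while those of *Zic1*, *Zic2* and *Zic5* were positive with spike-in scaling (0.01, 0.02 and 0.12). The *Zic4* probes differed among themselves in this contrast. The second was 1.81-fold lower on the knockout array (log2 ratio −0.86), past the threshold, and the third 1.24-fold higher (0.31).

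**Figure D2:**
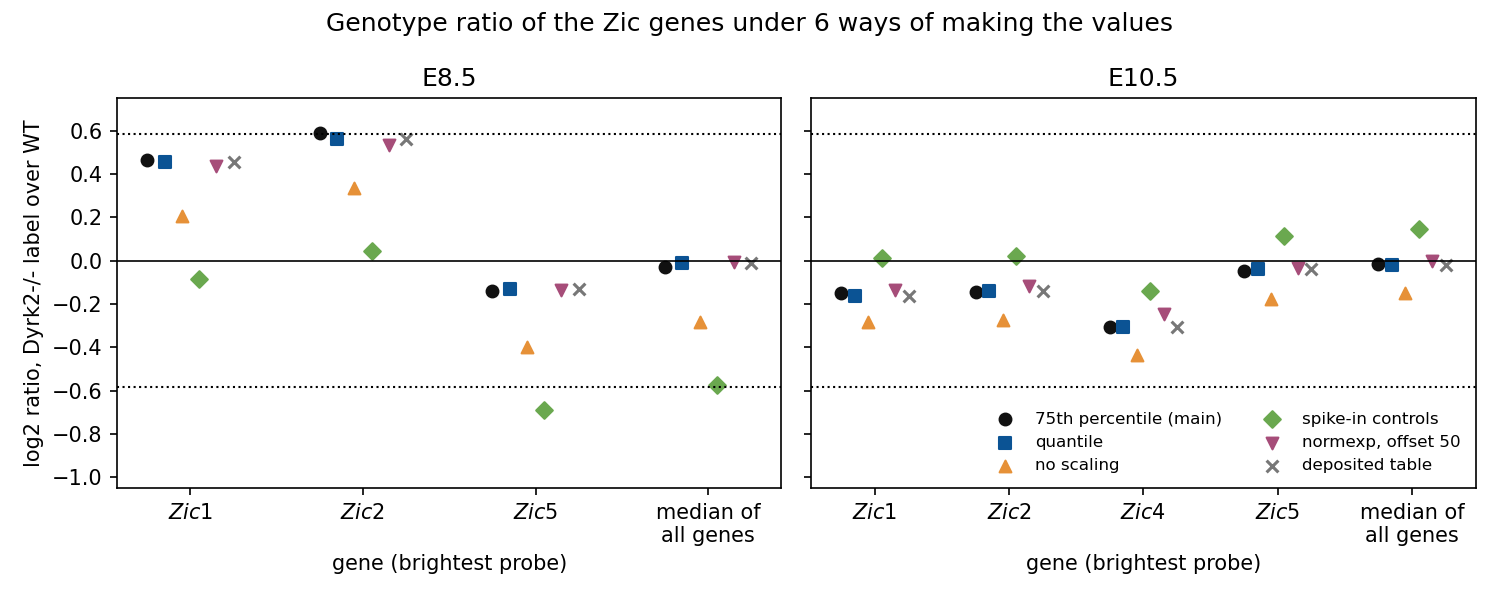
Log2 ratio of the array labelled knockout over the WT array (vertical axis) at E8.5 and E10.5 for the brightest probe of each *Zic* gene and for the median of all genes (horizontal axis); each symbol is 1 of 6 ways of making the values, and dotted lines mark 1.5-fold. At E8.5 *Zic2* moves from 0.59 with 75th percentile scaling to 0.04 with spike-in scaling, which also moves the median of all genes to −0.57, turns *Zic1* to −0.09 and takes *Zic5* to −0.69.

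The genotype effect was tested in the fit over all 4 arrays, blocked on stage. At a Benjamini-Hochberg adjusted p under 0.05 in limma, 0 of the 3 *Zic* genes above background on all 4 arrays passed. Of the 32289 probes 0.0186% (6) passed. That number depended on the setting: 729 passed without scaling, 37 with spike-in scaling and 0 without the trend. Without a filter 564 of 56604 probes passed. At an unadjusted p under 0.05 in limma there were also 0 of the 3 genes, where 1592 of the 32289 probes were under it. The fourth probe of *Zic4* was under it but entered the fit only through the WT arrays, and so could enter only with a difference; it is not counted. The fitted log2 differences of knockout from WT were 0.16 for *Zic1* (SE 0.16), 0.22 for *Zic2* (SE 0.18) and −0.09 for *Zic5* (SE 0.13), each with a limma adjusted p of 1.0. That of *Zic4* is not given, because its E8.5 values were below background on both arrays. These p-values miss the threshold and do not show that the genotypes were equal.

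The genes whose 4-array profile was nearest to a *Zic* gene were found by the Euclidean distance between log2 values centred on their mean over the 4 arrays, among 14579 genes well above background on all of them. For *Zic1* the nearest 2 were *Hk3*, a hexokinase (distance 0.14), and *Nppa*, the atrial natriuretic peptide (0.15). For *Zic2* the nearest were *Kcnip1*, *Ulk3* and *Mad1l1* (0.03, 0.03 and 0.05), and for *Zic5* they were *Norad*, *Arid1a* and *Zfyve27* (0.01, 0.02 and 0.02). *Zic2* and *Zic5* lay 0.54 apart. The genes named were picked as the nearest, so nearly every other gene lies farther than they do. The distance between *Zic2* and *Zic5* was not compared with that of other pairs.

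Neural markers were in part higher at E10.5, as *Zic1* and *Zic4* were. Of 10 genes of neural tissue, 5 were called higher at E10.5 and 0 lower on the WT arrays, and likewise on the knockout arrays. Among them were *Nes*, *Hes5*, *Neurog2* and *Tubb3* on both, where 18.2% (WT) and 15.2% (knockout) of all genes were called higher. Spike-in scaling gave 5 higher on the WT arrays, beside 16.4% of all genes, and 6 on the knockout arrays, beside 48.8%. The sum of the scaled signals of the list was 59.5 (WT) and 63.9 (knockout) in the E8.5 pair, with *Sox3* the brightest (19.2 and 19.7), and 137 and 116 in the E10.5 pair, with *Hes5* the brightest (56.5 and 48.0). All 10 were above background on each array. Their part in the rise of *Zic1* and *Zic4* was not tested. Between genotypes 2 of the 10 were called at E8.5, both higher on the knockout array and *Neurog2* among them (log2 ratio 0.86), where 3.95% of all genes were called higher, and 0 at E10.5. With spike-in scaling the ratio of *Neurog2* was 0.31, and 0 of the 10 were called higher and 5 lower at E8.5, where 0.744% and 48.2% of all genes were.

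Genes of the dorsal neural tube and roof plate, where *Zic* genes are transcribed, did not move as 1 group. Of 15 compared on the WT arrays 7 were called higher at E10.5 and 3 lower, where 18.2% and 17.1% of all genes were. Their median log2 ratio was 0.36 beside −0.09 over all genes. *Gdf7* and *Atoh1* entered only through the E10.5 arrays and could be called only as higher, and the 7 and the median include them. On the knockout arrays 6 of 14, *Atoh1* included, were called higher and 3 lower, where 15.2% and 13.9% of all genes were. Spike-in scaling gave 9 higher and 1 lower there, beside 48.8% and 4.18% of all genes. *Atoh1*, a marker of cerebellar and dorsal progenitors, went like *Zic4* from below background at E8.5 to detection at E10.5, with rises of at least 30.3-fold on the WT and at least 17.3-fold on the knockout arrays, and *Wnt3a* fell by 1.88 on the log2 scale on the WT arrays. Between genotypes 1 of 13 was called at E8.5, *Bmp6* (log2 ratio −0.63), and 1 of 15 at E10.5, *Gdf7* (−0.96), both lower on the knockout array, where 4.11% and 3.2% of all genes were called lower. The value of *Gdf7* on the E10.5 knockout array was −4.54, close to the floor of −4.77. With spike-in scaling 6 of the 13 were called lower at E8.5, beside 48.2% of all genes. Of the 6 GLI and GLIS relatives, 0 were called between genotypes at E8.5 or E10.5, and between stages *Gli1* was called lower on the WT arrays (−0.59) and *Glis1* on the knockout arrays (−0.65), where 17.1% and 13.9% of all genes were called lower. With spike-in scaling 2 of the 6, *Gli1* (−0.93) and *Glis1* (−0.73), were called lower on the E8.5 knockout array, and between stages *Glis1* was also called lower on the WT arrays (−0.66), where 20.3% of all genes were, while on the knockout arrays it was not called (−0.01) and *Gli2* (0.62) and *Glis2* (1.02) were called higher, as were 48.8% of all genes.

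The lists tied to the known roles of *Zic* genes were compared between genotypes beside all genes, of which 3.95% were called higher and 4.11% lower at E8.5. Of 16 genes of neural tube closure 1 was called between genotypes at E8.5, the folate receptor gene *Folr1* (log2 ratio −0.61), and 0 at E10.5. Of 11 genes of the left-right axis that could be compared 3 were called at E8.5, all lower on the knockout array: *Lefty2* (−1.88), *Cfc1* (−1.27) and *Foxj1* (−0.81). The value of *Foxj1* on the E8.5 knockout array was −4.30, close to the floor of −4.53. The median of the left-right list was −0.27 beside −0.03 over all genes, but −0.01 beside −0.01 with normexp, and 0 were called at E10.5. Of 15 genes of holoprosencephaly and hedgehog signalling 1 was called at E8.5, the Nodal co-receptor gene *Tdgf1*, 2.52-fold lower, and 0 at E10.5. Spike-in scaling lowers each of these E8.5 ratios further, and with it 7 of the 16 genes of neural tube closure, 8 of the 11 of the left-right axis and 9 of the 15 of holoprosencephaly were called lower, beside 48.2% of all genes.

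Markers of other tissues also differed between the genotypes, where 3.95% of all genes were called higher and 4.11% lower in the E8.5 pair (E10.5 pair: 1.99% and 3.2%). Of 8 somite genes 7 could be compared, and *Meox2* (log2 ratio 1.03) and *Pax1* (0.62) were called higher on the E8.5 knockout array and *Pax1* (−0.65) and *Tbx6* (−1.66) lower on that of E10.5. Of 7 neural crest genes *Sox10* was called higher at E8.5 (0.71), and none of the 7 was called in the E10.5 pair. With spike-in scaling *Meox2*, *Pax1* and *Sox10* fell short of 1.5-fold in each of these contrasts and kept their sign. Of 6 yolk sac endoderm genes 4 were called lower on the E8.5 knockout array and 0 at E10.5, and the sums of their scaled signals were 27.7 and 17.7 in the E8.5 pair and 17.3 and 14.3 in the E10.5 pair, with *Afp* the brightest on each array. Between stages the other 5 yolk sac genes were called lower at E10.5 on the WT and on the knockout arrays, where 17.1% and 13.9% of all genes were, and *Afp* was called higher on the knockout arrays (0.87), where 15.2% were. The median log2 ratio of the 6 between stages was −4.42 (WT) and −4.16 (knockout), and −2.82 and −2.50 with normexp. With spike-in scaling 3 of the 7 neural crest and all 6 yolk sac genes were called lower on the E8.5 knockout array, beside 48.2% of all genes. Of 5 trophoblast and decidua genes *Prl8a2* (1.44) and *Prl3d1* (at least 6.62-fold) were called higher on the E8.5 knockout array and *Ascl2* (0.80) on that of E10.5, and *Tpbpa* was above background on no array. The part of these differences in the *Zic* ratios was not tested.

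Promoter sequences of 3 of the 4 *Zic* genes, all but *Zic2*, were in the RefSeq table used (GRCm38.p6). Those of *Zic1* and *Zic4* are shown because these neighbours rose together. Each is the 250 bases before the start of the gene, 5′ to 3′ on its own strand, and 2703 bases lie between the windows, chr9:91365769-91366018 on the minus strand for *Zic1* and chr9:91368722-91368971 on the plus strand for *Zic4*. Capitals mark matches to 5 motifs searched on both strands, none of which contains another. They are the CCAAT box (CCAAT), the TATA box (TATAAA), the GC box bound by SP factors (GGGCGG), the E-box bound by MYC-type factors (CACGTG) and the core of the sites bound by GLI factors (GGGTGGTC).
*Zic1*: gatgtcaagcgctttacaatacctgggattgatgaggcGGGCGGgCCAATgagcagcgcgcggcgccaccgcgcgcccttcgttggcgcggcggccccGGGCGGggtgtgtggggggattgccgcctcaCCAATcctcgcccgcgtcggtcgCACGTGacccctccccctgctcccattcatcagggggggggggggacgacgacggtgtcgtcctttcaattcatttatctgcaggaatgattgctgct
*Zic4*: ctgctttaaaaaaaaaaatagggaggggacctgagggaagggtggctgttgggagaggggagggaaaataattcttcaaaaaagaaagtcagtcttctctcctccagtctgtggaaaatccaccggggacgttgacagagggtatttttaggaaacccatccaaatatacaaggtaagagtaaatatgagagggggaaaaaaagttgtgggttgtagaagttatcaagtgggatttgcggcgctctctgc
The *Zic1* window has the CCAAT box at 2 places, the GC box at 2 places and the E-box at 1, and the *Zic4* window has none of the 5 motifs. Over 32851 promoter windows of this length, 33.8% hold the CCAAT box, 32.7% the GC box, 12.4% the TATA box, 6.02% the E-box and 0.703% the GLI core. The share of G and C was 66.0% in the *Zic1* window and 44.4% in that of *Zic4*, with a median of 52.4% over all windows. The *Zic5* window, at 62.4%, also has none of the 5 motifs. These matches describe the letters of the windows and not sites in use.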

How the data were processed

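RNA of whole embryos was measured on 4 arrays of 1 slide, 1 for each genotype and stage. The authors deposited the scanner output, a background-subtracted intensity per spot that is not scaled between arrays; its header gives Feature Extraction 10.7.1.1 and the submitters' processing notes 9.5.1.1. A second deposited file holds intensities with the same distribution on each array, with a median log2 difference of 0.01 from the scanner values after quantile normalization.

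Spots of the same probe were averaged as log2 intensities, leaving out outlier spots, and the 75th percentile of the array was subtracted. Of 56605 probes 1 lacked a value and was left out, and 31370 and 30226 (E8.5, WT and knockout) and 31818 and 31943 (E10.5) were well above background. Names came from RefSeq accessions for 32993 probes (table of GRCm38.p6) and from the files for 10224, and probe coordinates are those of the files (mm9). A probe above background on 1 array of a pair gave a bound, taken on the other array from the floor (E8.5: −4.82 and −4.53, E10.5: −4.72 and −4.77) or from the probe's own value if that was higher, and calls use the bound. No test was made between single arrays. The probes that reached this mark on 2 arrays or more were fitted in limma 3.58.1 (lmFit, eBayes with trend), adjusted by Benjamini-Hochberg over 32289 probes. Both call rules were tested on simulated data. For the limma fit the simulated noise was set as between spots, so it holds no variation between embryos and does not test for it. The work used Python 3.11.15 with pandas 2.3.3, numpy 2.4.6 and matplotlib 3.10.9, and R 4.3.3.

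The alternatives were quantile normalization, no scaling, the median of 7 of 10 spike-in probes, normexp with an offset of 50, the deposited table, the mean over the probes of a gene, filters on all arrays of a fit or on none, a 2-fold threshold, and eBayes without the trend. Named genes are all *Zic* probes, *Dyrk2*, the 2 or 3 nearest profiles of each *Zic* gene above background on all 4 arrays, and from each list the members past 1.5-fold between genotypes or with a role near *Zic* genes, at most 6 a list; the named neural genes between stages are among those called. Values of some genes that meet these rules are withheld and not reported here. The members and lists were chosen with earlier results of these data known.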

Additional observations from a re-analysis of the deposited data

Results flagged for a closer look

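*Zic1* and *Zic2* had genotype ratios of opposite sign at the 2 stages, while well above background on all 4 arrays. The log2 ratio of the knockout over the WT array was 0.46 (E8.5) and −0.15 (E10.5) for *Zic1*, and 0.59 and −0.14 for *Zic2*. With 1 array a group the difference between the stages was not tested. With spike-in scaling the ratios were −0.09 and 0.01 for *Zic1* and 0.04 and 0.02 for *Zic2*, a shift by 1 constant for all genes of a pair; beside medians of all genes of −0.57 and 0.15 both genes stay above at E8.5 and below at E10.5.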

How the results depend on the processing

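Of the 54 values that the 9 alternatives gave for the 6 counts of *Zic* genes, 45 lay within 1.5 times the count of the main analysis. The counts between stages include *Zic4* here, which the report leaves uncounted because it entered only through the E10.5 arrays. The count of 1 gene between genotypes at E8.5 became 0 after quantile normalization, without scaling, with normexp, in the deposited table, with the mean over the probes of a gene and at the 2-fold threshold. With spike-in scaling it was 1, but the gene was *Zic5*, lower on the knockout array, in place of *Zic2*, since this scaling moves every log2 ratio of the E8.5 pair by −0.55. The counts of 2 genes between stages became 1 on the WT arrays and 1 on the knockout arrays with a filter on both arrays, and 1 in limma with a filter on all 4 arrays, since *Zic4* was below background at E8.5 and is left out by these filters. Spike-in scaling gave 3 genes on the knockout arrays, with *Zic5* added. The counts of 0 between genotypes at E10.5 and over both stages were 0 under each alternative. Of 90 values for the ratios of single genes, 73 kept their direction and their side of 1.5-fold, 9 changed sign below the threshold, 6 fell below it and 2 passed it. The rise of *Zic1* kept its sign under each alternative. Over the ways of making the values, its log2 ratio was at least 3.71 on the WT arrays. On the knockout arrays it ran from 3.14 to 3.84. The ratio of *Zic4* ran from 2.85 to 5.16 on the WT and from 2.37 to 5.02 on the knockout arrays, lowest with normexp. Where the *Zic4* ratio is a bound it could be only positive, so its sign is not a check. Arrays are matched only in the limma fits, by genotype or by stage, and none could be left out because each group has 1 array. Signal over background limits the values of *Zic4* at E8.5, which are bounds, and those of its weakest probes.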
